A study of Mus musculus with 15 samples.

Results

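The genes described here were grouped under homologous recombination, the Fanconi anaemia pathway, mismatch repair and the ATR-CHK1 replication checkpoint. They were taken by name, and 36 of the 37 names had a row among the 11551 genes of the deposited tables. By role, 16 were listed under homologous recombination, 9 under the Fanconi pathway, 3 under mismatch repair and 8 under ATR-CHK1. The ATR-CHK1 list also holds Chek2 and Mdc1, genes of the response to DNA breaks, so its name is a label and not a strict pathway. The name Claspn matched no row. The claspin gene is listed as Clspn and its values are given beside its checkpoint partners, outside the counts.

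RNA was sequenced from 15 libraries of mouse Abelson pre-B cells, which are pre-B cells transformed by the v-Abl kinase, at passage 10 to 15. Every culture received the ABL kinase inhibitor imatinib for 48 hours. There were 5 groups of 3 libraries. Rag_SPIC_tet_NoDOX were Rag -/- cells with no agent and no hairpin, Rag_SPIC_tet_DOX were Rag -/- cells given DOX (doxycycline), and Rag_SPIC_tet_DOX_shBCLAF1 were Rag -/- cells given DOX and carrying the shBCLAF1 hairpin. Art were Art -/- cells without a hairpin and Art_shBCLAF1 were Art -/- cells with shBCLAF1, Art being the usual short name of the Artemis nuclease that opens hairpin DNA ends in V(D)J recombination. No agent is named for the Art -/- groups, and SPIC_tet stands in the names of the Rag -/- groups alone, so genotype and this construct cannot be told apart. A control hairpin is named nowhere, nor whether each genotype is a single clone. The labels do not state whether replicate libraries were grown as independent cultures, and each p-value below therefore speaks for library-to-library spread alone, which may be technical.

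Homologous recombination copies the sister chromatid to mend a broken or stalled replication fork. Ends are resected by the MRN complex (Nbn, Rad50), CtIP (Rbbp8) and Exo1, and Brca1, Bard1, Palb2 and Brca2 act in the steps that follow. The Fanconi core complex (Fanca, Fancb, Fancc, Fancg, Fancl, Fancm) ubiquitinates the Fancd2-Fanci pair at DNA crosslinks, and ATR with Atrip and Topbp1 activates CHK1 when forks stall. Many of these genes are transcribed mainly in cells that replicate DNA, whereas RAG breaks are made in arrested pre-B cells and are joined by non-homologous end joining.

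The effective library size ran from 5.81 to 27.1 M reads. Art replicate 3 was the smallest and had 145 genes at 0 reads, against 19 to 56 in the other 14 libraries. The Bclaf1 mRNA was not lower under the hairpin label: its group mean was 7.73 log2 CPM in Rag_SPIC_tet_DOX and 8.04 in Rag_SPIC_tet_DOX_shBCLAF1, and 7.32 in Art and 8.32 in Art_shBCLAF1. The Art libraries were at 7.81, 7.75 and 6.41 log2 CPM for Bclaf1, a mean of 7.78 without Art replicate 3. Directions drawn from that label are therefore given for the libraries labelled shBCLAF1. Spic had group means of 0.82 log2 CPM in Rag_SPIC_tet_NoDOX and 4.21 in Rag_SPIC_tet_DOX, and stood at 7.46 in Rag_SPIC_tet_DOX_shBCLAF1, 0.44 in Art and 4.54 in Art_shBCLAF1. Dclre1c, which encodes Artemis, had a group mean of 4.68 log2 CPM in Rag_SPIC_tet_NoDOX and was at 5.12, 4.99 and 2.87 in Art, a mean of 4.33 with all 3 libraries and 5.06 without Art replicate 3, so that library turns its direction. A count over the whole gene does not resolve a deleted part, so this value checks no label. The pre-B marker list had 14 of 14 genes in the tables, with a summed level between 6498 and 14187 CPM over the 15 libraries. Of the markers of other lineages, 5 of 13 myeloid, 3 of 9 T and NK, 2 of 7 erythroid and megakaryocytic, 5 of 6 plasma-cell and 0 of 6 stromal genes had a row.

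Across the 5 groups most of the repair genes were lowest in Art and highest in Art_shBCLAF1. The mean was lowest in Art for 28 of 36 repair genes, against 30% of all genes, and highest in Art_shBCLAF1 for 26 of 36, against 27.1% of all genes. For 18 of 36 the 3 Art libraries lay below the other 12, against 7.63% of all genes, and for 17 of 36 the 3 Art_shBCLAF1 libraries lay above the other 12, against 13.5%. Both held for 6 of 16 homologous recombination genes (Brca2, Bard1, Xrcc2, Rad54l, Blm, Rbbp8), 4 of 9 Fanconi genes (Fancd2, Fanci, Fancl, Brip1), 4 of 8 ATR-CHK1 genes (Chek1, Topbp1, Timeless, Tipin) and 0 of 3 mismatch repair genes. The share of all genes for which both held was not computed, so these joint counts have no such share beside them. In bulk RNA, fewer cells that transcribe a gene and less of its RNA per cell cannot be told apart. The spread within a group was widest in Art, where the median range over the 3 libraries was 0.69 log2 CPM, and narrowest in Rag_SPIC_tet_DOX_shBCLAF1, where it was 0.10.

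**Figure D1:**
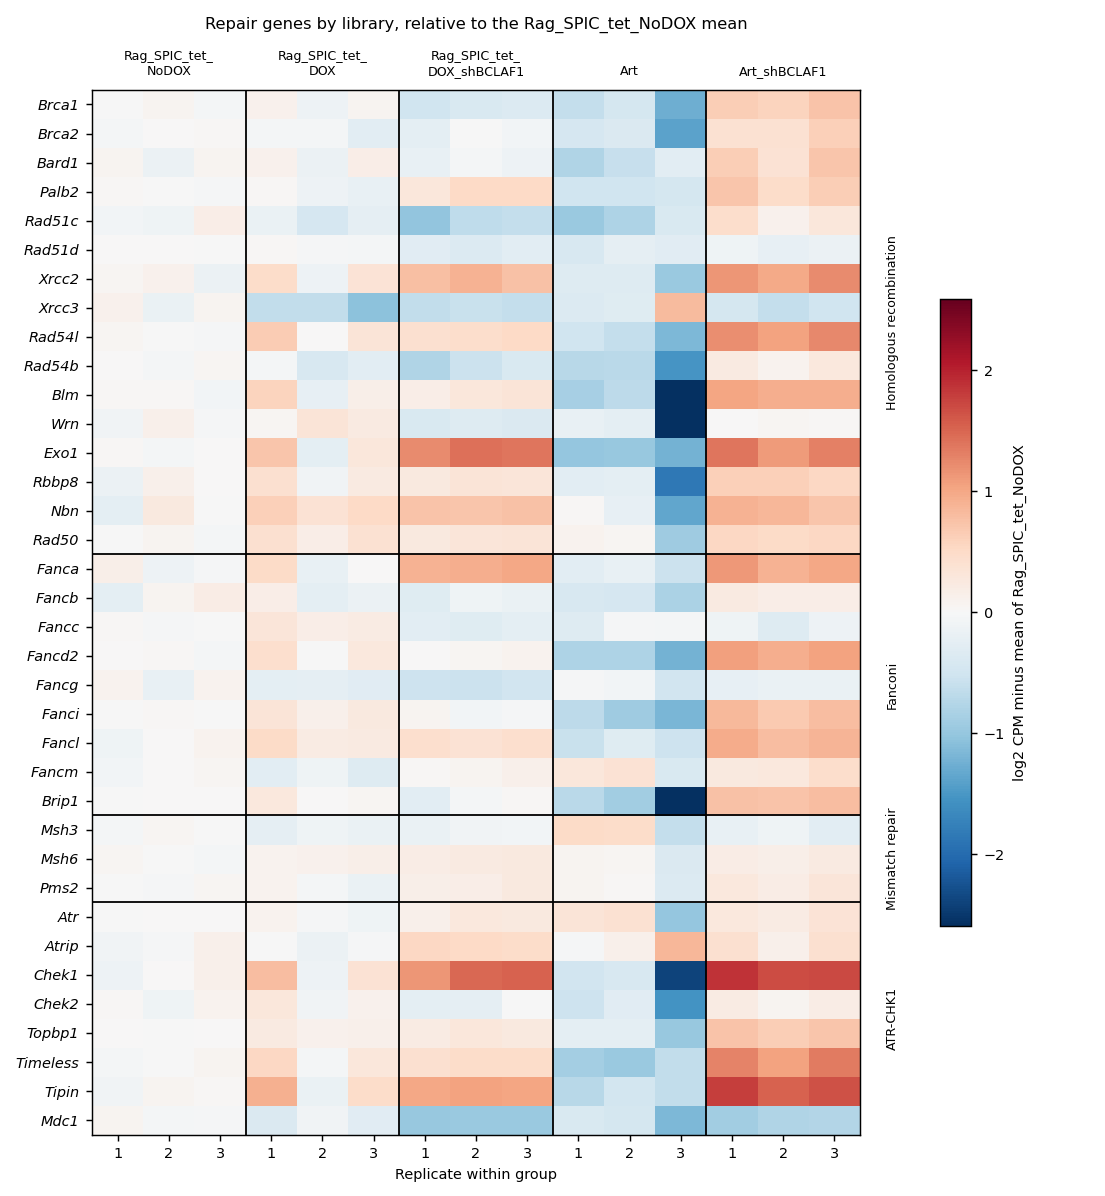
Heat map of the 36 repair genes (rows, grouped by role) in the 15 libraries (columns, 3 per group). Colour gives log2 CPM minus the mean of the 3 Rag_SPIC_tet_NoDOX libraries, with the colour scale spanning the largest absolute difference. Most rows are blue in Art and red in Art_shBCLAF1, and Art replicate 3 is the darkest column for Blm, Wrn, Brip1 and Chek1.

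Per kilobase of exon, the most abundant members over the 5 group means were Msh6 at 5.41 log2 CPM per kb, a gene of mismatch recognition, Tipin at 4.75, Topbp1 at 4.48 and Mdc1 at 4.44. The lowest were Fancc at 0.94, Rad51c at 1.05 and Palb2 at 1.26 log2 CPM per kb. These levels use the exon length of each gene in the GENCODE M21 annotation.

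Promoter sequences are shown because many repair genes lay low and high in the same libraries, and because replication genes are known for E2F sites in their promoters and mitotic genes for CCAAT boxes. In the RefSeq table of GRCm38.p6 promoters, 26 of the 36 members had an entry, and the 250 bases upstream of the start site were searched on both strands. Some of the counted windows hold bases annotated as UTR, such as 208 in Fanci, 93 in Palb2, 77 in Blm, 30 in Msh3 and 21 in Fancg. The E2F letters TTTCCCGC, TTTGGCGC, TTTCGCGC or TTTGCCGC were present in 7 of 26 members, and in 1.9% of all 32851 promoters. The letters CCAAT were present in 14 of 26 and in 33.8% of all promoters. The cell-cycle homology letters TTTGAA or TTCGAA were present in 2 of 26 against 17.1%, and GAGGAA, the core that PU.1 and SPIC bind, in 5 of 26 against 23.3%. A member was counted if any of its entries matched, while the shares of all promoters count each of the 32851 entries. The 2 kinds of share thus differ in unit. The strings of different motifs do not contain one another, the 2 E2F matches of Msh3 overlap, and a match is a description, not a site.

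The promoters of Chek1, Fanca and Brip1 are printed, the first 3 by the number of comparisons with a call in 1 direction, then by the median size of the change, that have an entry and no annotated UTR in the window, 5′ to 3′ along the gene and from RefSeq, with CCAAT or its reverse complement in capitals. Chek1 lies on the minus strand at chr9:36726659-36726908, Fanca on the minus strand at chr8:123318577-123318826 and Brip1 on the minus strand at chr11:86201194-86201443.
Chek1: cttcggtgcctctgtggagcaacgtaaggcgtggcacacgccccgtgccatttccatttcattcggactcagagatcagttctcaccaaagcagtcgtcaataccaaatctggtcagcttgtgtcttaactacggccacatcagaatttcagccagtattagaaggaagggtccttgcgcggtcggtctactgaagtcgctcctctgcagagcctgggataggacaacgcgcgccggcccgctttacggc
Fanca: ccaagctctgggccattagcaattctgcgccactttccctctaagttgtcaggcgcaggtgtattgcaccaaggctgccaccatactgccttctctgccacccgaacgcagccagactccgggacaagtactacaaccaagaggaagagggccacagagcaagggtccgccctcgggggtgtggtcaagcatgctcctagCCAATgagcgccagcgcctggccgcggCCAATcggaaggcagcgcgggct
Brip1: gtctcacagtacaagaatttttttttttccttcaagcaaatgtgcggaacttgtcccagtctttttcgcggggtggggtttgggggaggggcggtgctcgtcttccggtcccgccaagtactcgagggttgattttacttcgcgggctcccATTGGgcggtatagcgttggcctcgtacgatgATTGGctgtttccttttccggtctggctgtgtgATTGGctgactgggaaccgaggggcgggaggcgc
Coordinates are those of GRCm38.p6, while the processing notes name mm9 for the counts. The Chek1 window held 0 matches to any of the 4 letter sets. Fanca held 2 CCAAT matches, whose first bases lie at -50 and -23 from the start site, and 1 GAGGAA match at -110, which is not in capitals. Brip1 held 3 CCAAT matches, at -99, -67 and -34.

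Windows of 30 bases show E2F letters in capitals, chosen after the values were seen: Bard1 on the minus strand at chr1:71103163-71103192, Chek2 on the plus strand at chr5:110839820-110839849, Brca2 on the plus strand at chr5:150522442-150522471 and Mdc1 on the plus strand at chr17:35841468-35841497.
Bard1: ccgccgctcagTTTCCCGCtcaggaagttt
Chek2: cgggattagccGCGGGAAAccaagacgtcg
Brca2: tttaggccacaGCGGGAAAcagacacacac
Mdc1: ttttcttcagcctgTTTCCCGCcggtagcc
The capitals start at -209, -152, -168 and -16 from the start site. Bard1 and Brca2 were among 22 genes that rose with the shBCLAF1 label in Art -/- cells, and Chek2 and Mdc1 were not. Fancg, Topbp1 and Msh3 also held E2F letters, and their log2 fold changes in that comparison were 0.02, 1.19 and -0.32.

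In Art against Rag_SPIC_tet_NoDOX, the comparison of cells that cut but cannot open hairpin ends with cells that cannot cut, the repair genes sat lower in Art. Of 36, 5 fell and 0 rose at an adjusted p below 0.05, against 5.14% of all genes called in either direction, 2.58% called higher and 2.56% called lower. These were Exo1, Fancd2, Fanci, Timeless and Tipin. The median log2 fold change of the 36 was -0.55, beside -0.03 over all genes, and 32 of 36 values lay below 0. The 3 Art libraries lay below the 3 Rag_SPIC_tet_NoDOX libraries for 26 of 36, against 19.4% of all genes.

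Exo1, the 5′ exonuclease of long-range resection, was at 4.59, 4.51 and 4.55 log2 CPM in the 3 Rag_SPIC_tet_NoDOX libraries and at 3.54, 3.57 and 3.33 in the 3 Art libraries. The 2 groups did not overlap and each was tight. Its log2 fold change was -1.07 (SE 0.13, limma adjusted p 0.0138). Fancd2, which is ubiquitinated at crosslinks, was at 5.02, 5.06 and 4.97 log2 CPM without DOX and at 4.21, 4.21 and 3.79 in Art, a log2 fold change of -0.94 (SE 0.15, limma adjusted p 0.0275). Its partner Fanci was at 4.40, 4.45 and 4.40 and at 3.74, 3.49 and 3.23 log2 CPM, a log2 fold change of -0.93 (SE 0.16, limma adjusted p 0.0314). Fancd2 and Fanci thus both lay lower in every Art library than in any Rag_SPIC_tet_NoDOX library. Timeless and Tipin, the fork protection complex that travels with the replisome, had log2 fold changes of -0.82 (SE 0.13, limma adjusted p 0.0252) and -0.61.

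The number of calls in this comparison changed with single libraries, most of all with Art replicate 3. That library lay below both other Art libraries for 26 of 36 repair genes, against 47.6% of all genes, and its median deviation from their mean was -0.53 log2 CPM over the 36, beside -0.00 over all genes. Brip1, a helicase bound to BRCA1, was at 5.01, 5.03 and 5.04 log2 CPM in Rag_SPIC_tet_NoDOX and at 4.34, 4.12 and 2.44 in Art, the last from 31 reads. Blm, the RecQ helicase of the dissolvasome, was at 5.40, 5.42 and 5.32 and at 4.52, 4.69 and 2.80, the last from 40 reads. All 3 Art libraries lay lower for both helicases, the third far below the others, and neither gene passed the test, with log2 fold changes of -1.39 (adjusted p 0.173) and -1.37 (adjusted p 0.180) in limma. Without Art replicate 3, 26 repair genes fell and 3 rose, against 47.4% of all genes called (23.2% higher and 24.2% lower), and the median log2 fold change was -0.41. The 3 that rose were Msh3 (0.48), Atr (0.36) and Fancm (0.33). Leaving out any other library of the 6 ended all 5 calls. Those 5 fits called 0 to 1 of all 11551 genes, and the median log2 fold change of the 36 was -0.56 to -0.65 in them, so the loss of calls was common to all genes. Median centring ended the call for Tipin.

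Atr, the apical kinase of the checkpoint, turned direction with that library. It was at 5.74, 5.77 and 5.77 log2 CPM in Rag_SPIC_tet_NoDOX and at 6.09, 6.16 and 4.77 in Art, so 2 Art libraries were above that group and the third was below it. With all 6 libraries the log2 fold change was -0.09 (adjusted p 0.897), and without Art replicate 3 it was 0.36 (adjusted p 0.000119, limma). Xrcc3, a homologous recombination gene, turned the other way: it was at 5.75, 5.47 and 5.71 log2 CPM in Rag_SPIC_tet_NoDOX and at 5.29, 5.34 and 6.46 in Art. Its log2 fold change was 0.05 with all libraries and -0.33 without Art replicate 3.

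**Figure D2:**
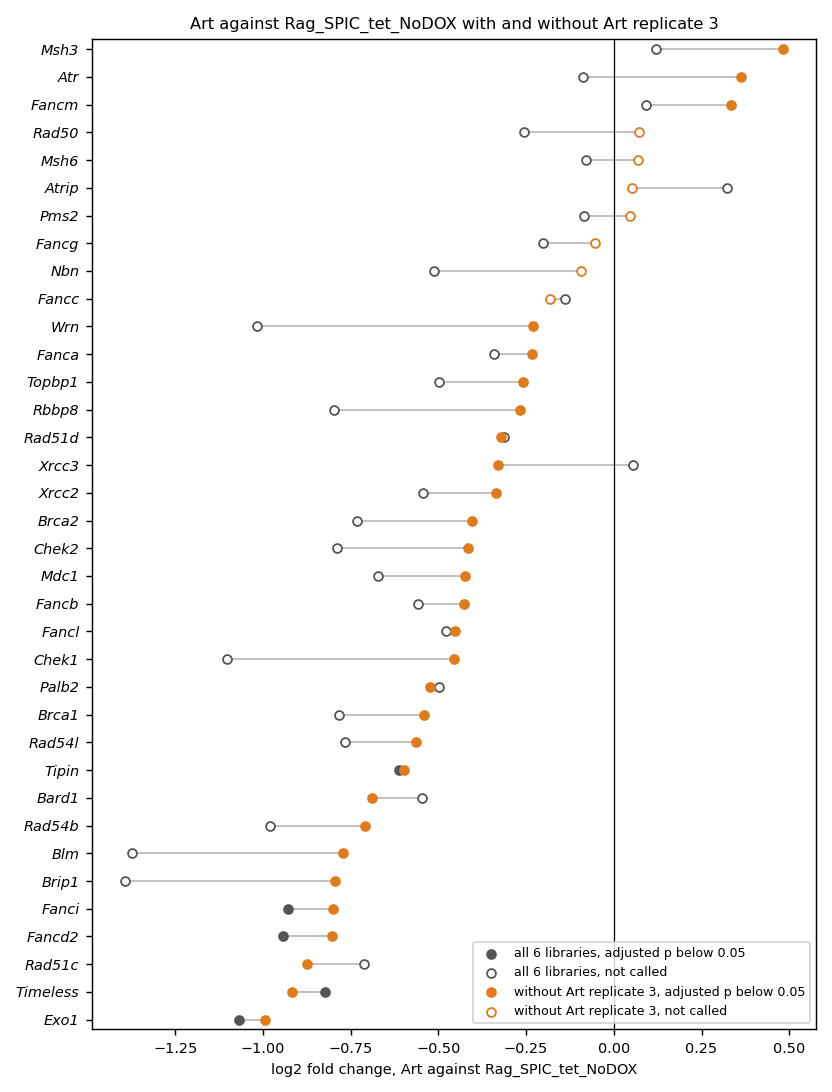
Log2 fold change of the 36 repair genes (rows) in Art against Rag_SPIC_tet_NoDOX with all 6 libraries (grey) and without Art replicate 3 (orange), filled where the limma adjusted p is below 0.05. The number called goes from 5 to 29, while 26 of 36 values move toward 0, as for Blm from -1.37 to -0.77.

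The breast cancer genes followed the same order. Brca1 was at 5.75, 5.84 and 5.71 log2 CPM in Rag_SPIC_tet_NoDOX and at 5.14, 5.30 and 4.50 in Art, and Brca2, which acts with Palb2 in recombination, was at 5.75, 5.82 and 5.84 and at 5.36, 5.44 and 4.42. Neither pair of groups overlapped, and neither gene passed the limma test (log2 fold changes of -0.78 and -0.73, adjusted p 0.109 and 0.202). Without Art replicate 3 the values were -0.54 (adjusted p 7.07e-06) and -0.40 (adjusted p 7.68e-05, limma). The checkpoint kinase gene Chek1 was at 3.47, 3.62 and 3.74 log2 CPM and at 3.12, 3.19 and 1.22, the last from 13 reads, with a log2 fold change of -1.10 (adjusted p 0.298, limma).

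Cell-cycle genes lay lower in Art as well. The summed level of the 28 S-phase genes was 2116 to 2162 CPM in Rag_SPIC_tet_NoDOX and 1414 to 1952 CPM in Art, and that of the 24 G2/M genes was 5227 to 5385 and 1865 to 2982 CPM. Of these, 3 S-phase genes (Gins1, Mcm6, Mcm4) and 9 G2/M genes, led by Ube2c, Birc5 and Cdca8, fell, and 0 rose. The summed level of the 5 listed myeloid genes was 279 to 295 CPM in Rag_SPIC_tet_NoDOX and 670 to 904 CPM in Art, and Itgam alone gave 659 to 894 CPM in Art. The other 4 were low, with Cd14 at 1 to 4 reads and Adgre1 at 2 to 29 reads per Art library. The 3 T and NK genes summed to 83.5 to 87.5 CPM in Rag_SPIC_tet_NoDOX and 124 to 154 CPM in Art, the 2 erythroid and megakaryocytic genes to 5.54 to 8.02 and 10.6 to 11.9 CPM, and the 14 pre-B markers to 11276 to 11894 and 13424 to 14187 CPM. The sums of these 3 lists and of the myeloid list were higher in Art without overlap, while those of the 5 plasma-cell genes overlapped between the groups. A sum follows its most abundant genes. Csf1r (3.68 to 4.12 and 0.96 to 1.63 CPM), Lyz2 and Adgre1 were lower in Art without overlap, and Cd14 was higher. The medians of the pre-B list overlapped, at 9.81 to 9.84 log2 CPM in Rag_SPIC_tet_NoDOX and 9.59 to 9.90 in Art. Art replicate 3, lowest in the repair-gene median (4.03 log2 CPM against 4.42 and 4.59), was highest in the S-phase median (5.60 against 4.93 and 4.84). The part of these lists in the repair-gene values was not tested. Among 73 other genes of the same pathways (of 78 names), 7 fell and 0 rose, with Eme1 (-0.89), the MUS81 nuclease partner, lowest among those called. Clspn, the claspin adaptor that brings CHK1 to ATR, had group means of 6.27 log2 CPM in Rag_SPIC_tet_NoDOX and 5.29 in Art. The authors' deposited table for this comparison lists 30 of the 36 repair genes, 27 lower and 3 higher in Art, and 55.3% of all genes.

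With DOX in Rag -/- cells without a hairpin, Xrcc3 was the repair gene called with all 6 libraries, and the number of calls depended on the fit. The genes that were not called are not thereby shown to be unchanged. Between Rag_SPIC_tet_DOX and Rag_SPIC_tet_NoDOX, 1 of 36 passed the test and it fell, against 11.8% of all genes called in either direction, 3.16% called higher and 8.67% called lower. The median log2 fold change of the 36 was 0.11, beside 0.00 over all genes. At an unadjusted p below 0.05 there were 11 of 36, against 34.2% of all genes. The gene was Xrcc3, at 5.75, 5.47 and 5.71 log2 CPM without DOX and at 5.01, 5.01 and 4.59 with DOX. The groups did not overlap, and the log2 fold change was -0.77 (SE 0.14, limma adjusted p 0.0208). This call ended without Rag_SPIC_tet_NoDOX replicate 1 or 3 or Rag_SPIC_tet_DOX replicate 3, and when all 15 libraries were fitted together, in fits that called 0.104%, 0.13%, 0.502% and 10% of all genes. The groups did not overlap for 8 repair genes that were higher with DOX, against 18% of all genes, and for 7 that were lower, against 22.7%.

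The Rag_SPIC_tet_DOX libraries spread widely in many repair genes. Replicate 1 was above replicate 3 and replicate 3 above replicate 2 for 23 of 36, against 33.5% of all genes. Chek1 was at 4.40, 3.47 and 3.99 log2 CPM in replicates 1 to 3 and Exo1 at 5.27, 4.29 and 4.84. Fanca, a core-complex scaffold, was at 5.09, 4.40 and 4.60. In each of these genes replicate 2 lay at or below the level of the cells without DOX and replicate 1 above it. Myc, whose product drives growth and cycling, had the same order at 8.06, 3.76 and 6.83 log2 CPM, and the summed S-phase level ran from 2065 to 3575 CPM over these libraries. Their part in the spread was not tested. Without replicate 2, 12 repair genes rose and 3 fell (Xrcc3, Fancm, Mdc1), against 39.6% of all genes called (20% higher and 19.6% lower), with Tipin at 0.69, Chek1 at 0.58 and Nbn at 0.56 the highest. Of the 28 S-phase genes 22 then rose, where with all libraries 0 were called and 8 had an unadjusted p below 0.05 in limma.

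Among the 73 other pathway genes 2 rose with DOX, Fignl1 (0.56) and Sfr1 (0.37), and 5 fell, with Slx1b (-0.55), Mnd1 (-0.53) and Top3b (-0.47) lowest. Of 24 G2/M genes 4 fell, led by Cenpe (-0.51), and 0 rose. The 5 myeloid genes summed to 173 to 262 CPM with DOX and 279 to 295 CPM without it, the 3 T and NK genes to 63.9 to 70.6 and 83.5 to 87.5 CPM, and the 5 plasma-cell genes to 440 to 606 and 611 to 629 CPM. The sums of these 3 lists were lower with DOX without overlap. Itgam gave most of the myeloid sum, at 146 to 242 CPM with DOX and 261 to 279 CPM without it. Csf1r, Lyz2 and Adgre1 overlapped between the groups, and Cd14 was higher with DOX. The part of these lists in the repair-gene values was not tested. The authors' deposited table for this comparison lists 28 of the 36, 17 higher and 11 lower with DOX, and 67.1% of all genes.

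In Rag -/- cells given DOX, the libraries labelled shBCLAF1 had a mixed pattern of repair genes: Exo1, Chek1 and Fanca were highest among the rises, and Mdc1, Wrn and Fancc lowest among the falls. Of 36, 10 rose and 8 fell, against 53.6% of all genes called (28.5% higher and 25.1% lower), so the share of repair genes called was near that of all genes. The median log2 fold change was 0.10, beside 0.05 over all genes. With each library centred on its median, which lowers every log2 fold change here by 0.10, 6 rose and 11 fell, against 22.8% of all genes called higher and 27.8% called lower. The groups did not overlap for 13 that were higher, against 35.5% of all genes, and for 8 that were lower, against 30.6%. Leaving out Rag_SPIC_tet_DOX replicate 3 or replicate 1, 2 or 3 of the labelled libraries lowered the 18 calls to 11, 10, 9 and 11, in fits that called 37.6%, 36.5%, 34.2% and 35.3% of all genes. Without Rag_SPIC_tet_DOX replicate 2, 7 rose and 12 fell, against 56.2% of all genes called (30.6% higher and 25.6% lower).

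Exo1 rose from 5.27, 4.29 and 4.84 log2 CPM to 5.78, 5.98 and 5.92, with no overlap and a log2 fold change of 1.10 (SE 0.23, limma adjusted p 0.00916). Chek1 rose from 4.40, 3.47 and 3.99 to 4.75, 5.09 and 5.14, also without overlap, by 1.04 (SE 0.24, limma adjusted p 0.0121). Fanca rose from 5.09, 4.40 and 4.60 to 5.49, 5.54 and 5.59, by 0.84 (SE 0.17, limma adjusted p 0.00770). In all 3 the labelled libraries lay close together and above the widely spread unlabelled ones. Xrcc2, a homologous recombination gene, rose by 0.58 (SE 0.17, limma adjusted p 0.0247). Atrip, the ATR partner, rose by 0.57 and Palb2, the bridge between BRCA1 and BRCA2, by 0.54. Smaller rises were called for Fancm (0.31), Pms2 (0.24), Atr (0.24) and Nbn (0.23).

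Mdc1, the adaptor that binds phosphorylated histone H2AX at breaks, had the lowest log2 fold change, -0.71 (SE 0.08, limma adjusted p 0.00123), from a mean of 7.62 to 6.91 log2 CPM. Wrn, a RecQ helicase, followed at -0.58 (SE 0.08, limma adjusted p 0.00215), then Fancc at -0.51 (SE 0.08, limma adjusted p 0.00323) and Rad51c at -0.49 (SE 0.15, limma adjusted p 0.0334). Brca1 was at 5.87, 5.64 and 5.84 log2 CPM in Rag_SPIC_tet_DOX and at 5.25, 5.37 and 5.41 in the labelled libraries, a log2 fold change of -0.44 with no overlap. Rad51d (-0.29), Fancg (-0.26) and Fanci (-0.26) also fell. Brca2 was at 5.75, 5.74 and 5.52 against 5.55, 5.79 and 5.73 log2 CPM, and its groups overlapped (log2 fold change 0.02, adjusted p 0.904, limma). Fancd2, at 5.45, 5.0 and 5.29 against 5.02, 5.07 and 5.11, also overlapped and did not pass the test.

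The 2 cell-cycle lists went apart here. Of 28 S-phase genes 9 rose, led by Pcna (1.06), Cdc6 (0.99) and Mcm2 (0.96), and 1 fell (E2f2, -0.53). Of 24 G2/M genes 18 fell, led by Ccnb2 (-1.01), Nusap1 (-0.94) and Bub1b (-0.69), and 0 rose. Summed S-phase levels were 2065 to 3575 CPM in Rag_SPIC_tet_DOX and 3656 to 3843 CPM in the labelled libraries, and Myc stood at 9.21 log2 CPM in the latter. The 5 myeloid genes summed to 173 to 262 CPM and 35.3 to 38.3 CPM, the 3 T and NK genes to 63.9 to 70.6 and 50.1 to 51.1 CPM, the 2 erythroid and megakaryocytic genes to 4.87 to 6.1 and 4.06 to 4.41 CPM, and the 14 pre-B markers to 9244 to 13545 and 8301 to 8650 CPM. The sums of these 4 lists were lower in the labelled libraries without overlap. The part of these lists in the repair-gene values was not tested. Among the other pathway genes 23 rose and 15 fell. The resection nuclease Dna2 (1.31), the nuclease subunit Eme2 (1.13) and the chromatin remodeller Hells (1.01) were highest, and Ctc1 (-0.78), Parpbp (-0.75) and Mnd1 (-0.70) lowest. The authors' deposited table lists 32 of the 36, 19 higher and 13 lower, and 82.1% of all genes.

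In Art -/- cells the libraries labelled shBCLAF1 had higher levels of most homologous recombination and Fanconi genes and of 4 of the 8 checkpoint genes. Of 36, 22 rose and 0 fell, against 49% of all genes called in either direction, 25% called higher and 24.1% called lower. The median log2 fold change was 1.15, beside 0.05 over all genes. Rises were called for 12 of 16 homologous recombination genes, 6 of 9 Fanconi genes, 4 of 8 ATR-CHK1 genes and 0 of 3 mismatch repair genes, of which 0 also had an unadjusted p below 0.05 in limma. The labelled libraries lay above the Art libraries for 28 of 36, against 33.9% of all genes. Centring each library on its median lowers every log2 fold change here by 0.23 and leaves 21 rises and 0 falls, against 18.7% of all genes called higher and 31.2% called lower.

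Chek1, whose promoter window held none of the searched letters, had the largest rise, from 3.12, 3.19 and 1.22 log2 CPM in Art to 5.47, 5.29 and 5.32 in Art_shBCLAF1, a log2 fold change of 2.85 (SE 0.53, limma adjusted p 0.00557). Blm rose from 4.52, 4.69 and 2.80 to 6.39, 6.31 and 6.33, by 2.34 (SE 0.49, limma adjusted p 0.00900). In both, Art replicate 3 was far below the other Art libraries, and without it the log2 fold changes were 2.21 and 1.74. Exo1 rose from 3.54, 3.57 and 3.33 to 5.93, 5.66 and 5.85, by 2.33 (SE 0.14, limma adjusted p 0.000140), and Tipin by 2.26 (SE 0.13, limma adjusted p 0.000125). These 2 genes had no such outlying library: Tipin was at 4.45, 4.67 and 4.51 log2 CPM in Art and at 6.94, 6.67 and 6.80 in Art_shBCLAF1.

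**Figure D3:**
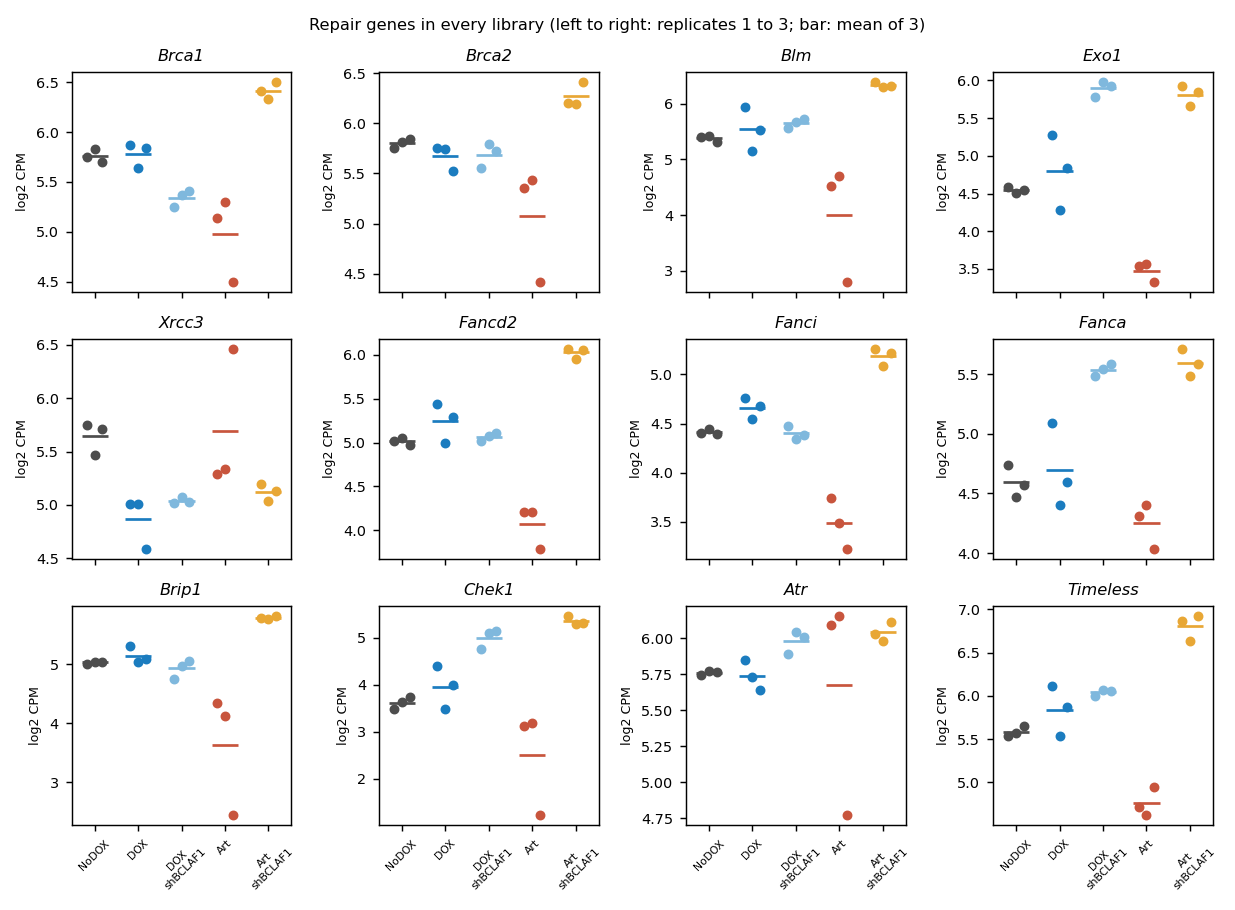
Log2 CPM of 12 repair genes in each library, by group, with points from left to right for replicates 1 to 3 and a bar at the mean of 3 (vertical scales differ between genes and do not start at 0). Exo1, Fancd2 and Fanci are lowest in Art with the 3 libraries close together, whereas Blm, Brip1, Chek1 and Atr have 1 Art library far below the others.

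Within homologous recombination, Rad54l, a DNA-dependent motor protein of recombination, rose by 1.93, Xrcc2 by 1.66, Rbbp8 by 1.39 and Nbn by 1.34. Brca1 rose from 5.14, 5.30 and 4.50 to 6.41, 6.34 and 6.5 log2 CPM, by 1.44 (2.71-fold), and Brca2 from 5.36, 5.44 and 4.42 to 6.20, 6.20 and 6.41, by 1.20 (2.29-fold). Neither gene overlapped between the groups, and the call for Brca2 ended without Art_shBCLAF1 replicate 1 or 3. The calls for Nbn and Rbbp8 ended without any 1 of the Art_shBCLAF1 libraries, and that for Rbbp8 also with median centring. Rad54b (1.18), Bard1 (1.12), Palb2 (1.11) and Rad51c (1.01) completed the called rises. Rad51d, Xrcc3, Wrn and Rad50 did not pass, with values of 0.15, -0.58, 1.05 and 0.78. Xrcc3 was at 5.29, 5.34 and 6.46 log2 CPM in Art and at 5.20, 5.04 and 5.13 in Art_shBCLAF1, so the groups did not overlap. It was the 1 repair gene of 36 with all labelled libraries below the others, against 31.7% of all genes.

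Among Fanconi genes Brip1 rose from 4.34, 4.12 and 2.44 to 5.78, 5.76 and 5.82 log2 CPM, by 2.15. Fancd2 rose from 4.21, 4.21 and 3.79 to 6.07, 5.96 and 6.06, by 1.96 (3.88-fold), and Fanci from 3.74, 3.49 and 3.23 to 5.26, 5.08 and 5.22, by 1.70 (3.25-fold). These 3 rose together with 3 core-complex genes, the ligase Fancl (1.36), the scaffold Fanca (1.34) and Fancb (0.75). Fancm (0.23), Fancg (0.02) and Fancc (-0.05), also of the core complex or its anchor, did not pass. In the checkpoint, Timeless rose by 2.05 and Topbp1, the ATR activator, by 1.19, whereas Chek2 (0.95, adjusted p 0.0509), Atr (0.37, adjusted p 0.451), Atrip (0.00) and Mdc1 (-0.14) did not pass in limma.

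Without Art replicate 3, 27 repair genes rose and 3 fell (Msh3 by 0.68, Mdc1 by 0.39 and Xrcc3 by 0.19), against 80.1% of all genes called (40.6% higher and 39.5% lower), and the median log2 fold change was 0.92. Every one of the 22 rises was called in that fit. The S-phase list rose for 26 of 28 genes, with a median of 2.11 and Cdc6 (2.90), Ccne1 (2.69) and Gins1 (2.66) highest, and the G2/M list for 21 of 24, with a median of 1.36. Summed S-phase levels were 1414 to 1952 CPM in Art and 4789 to 5612 CPM in Art_shBCLAF1, G2/M levels 1865 to 2982 and 5682 to 6427 CPM. Myc went from a mean of 4.07 to 8.79 log2 CPM. The 5 myeloid genes went from 670 to 904 CPM in Art to 24.3 to 39.8 CPM, and the 3 T and NK genes from 124 to 154 CPM to 26 to 28.4 CPM. The summed pre-B markers were 13424 to 14187 CPM in Art and 6498 to 7271 CPM in Art_shBCLAF1, the 5 plasma-cell genes 542 to 674 and 424 to 466 CPM, and the 2 erythroid and megakaryocytic genes 10.6 to 11.9 and 4.82 to 6.57 CPM. The part of these lists in the repair-gene values was not tested.

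**Figure D4:**
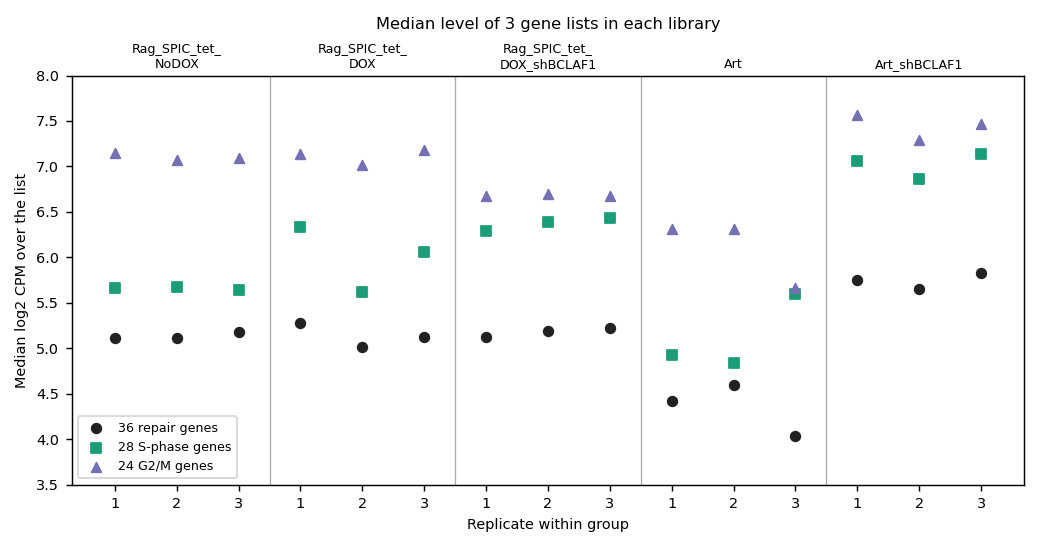
Median log2 CPM over the 36 repair genes (circles), 28 S-phase genes (squares) and 24 G2/M genes (triangles) in each of the 15 libraries, by group and replicate. All 3 lists are highest in Art_shBCLAF1, and in Rag_SPIC_tet_DOX_shBCLAF1 the G2/M median lies below that of the cells without the hairpin while the repair-gene medians of those groups overlap (5.02 to 5.28 and 5.12 to 5.22).

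Of the 73 other pathway genes 39 rose and 5 fell, or 29 and 14 with each library centred on its median. The remodeller Hells (2.81), the nuclease Dna2 (2.57) and the Fancd2 deubiquitinase Usp1 (2.01) were highest, and Top3b (-1.02), Eme2 (-0.82) and Rev1 (-0.73), a translesion polymerase, lowest among those called. Clspn had group means of 5.29 log2 CPM in Art and 7.06 in Art_shBCLAF1. The authors' deposited table lists 32 of the 36, 29 higher and 3 lower with the label, and 84.7% of all genes. Art libraries enter both this comparison and that with Rag_SPIC_tet_NoDOX, so a low value in Art moves the 2 in opposite directions, and the same holds for Rag_SPIC_tet_DOX in its 2 comparisons.

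The shBCLAF1-label effect was larger in Art -/- cells than in Rag -/- cells given DOX for most repair genes. The interaction term over the 12 libraries, which have no library in common between the 2 effects, was called for 21 of 36, all 21 with the larger value in Art -/- cells, against 31.3% of all genes called in either direction, 14.3% called that way and 17% the other way. Its median was 1.15, beside 0.03 over all genes. By role these were 11 of 16 homologous recombination genes, 5 of 9 Fanconi genes, 5 of 8 ATR-CHK1 genes and 0 of 3 mismatch repair genes, of which 0 also had an unadjusted p below 0.05.

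The largest differences were those of Brip1 at 2.37 (SE 0.54, limma adjusted p 0.00763), Blm at 2.23 (SE 0.57, limma adjusted p 0.0131), Fancd2 at 2.14 (SE 0.20, limma adjusted p 6.1e-05) and Fanci at 1.96 (SE 0.19, limma adjusted p 7.2e-05). Brip1 was at 5.31, 5.04 and 5.08 log2 CPM in Rag_SPIC_tet_DOX and at 4.75, 4.97 and 5.05 in the labelled Rag -/- libraries, which overlap, while the Art -/- groups were far apart. Blm was at 5.95, 5.16 and 5.52 and at 5.56, 5.68 and 5.72, again with overlap. Fanci was at 4.76, 4.55 and 4.67 and at 4.48, 4.35 and 4.39, without overlap and in the direction opposite to that in Art -/- cells. Brca1 and Rad51c were, with Fanci, the 3 genes called lower with the label in Rag -/- cells and higher in Art -/- cells, with interaction values of 1.88 and 1.49, both called. The share of all genes called in these opposite directions was not computed. These 3 and the 6 below were picked out after their values were seen. In Rag -/- cells the call for Brca1 held in every fit that left out a library. Those for Rad51c and Fanci held in such fits only without Rag_SPIC_tet_DOX replicate 2. Both ended with a replicate block, and that for Fanci also ended with all 15 libraries in 1 fit.

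Genes called higher with the label in both genotypes were Exo1, Chek1, Fanca, Xrcc2, Palb2 and Nbn, 6 of 36. Of all genes, 28.5% were called higher with it in Rag -/- cells and 25% in Art -/- cells. The share of all genes called higher in both was not computed, so no excess can be read from this count. The rise was larger in Art -/- cells for Exo1 (difference 1.24), Chek1 (1.81), Xrcc2 (1.08) and Palb2 (0.57) by the interaction test. For Fanca (0.50, adjusted p 0.133) and Nbn (1.11, adjusted p 0.0513) the difference did not pass in limma. Brca2 had a difference of 1.18. Atr (0.13, adjusted p 0.838) and Msh6 (0.16, adjusted p 0.481) had differences that did not pass in limma. Without Art replicate 3 the interaction was called for 30 of 36, 27 larger in Art -/- cells and 3 smaller (Msh3, Atr, Fancm), against 54.4% of all genes (26.6% larger and 27.8% smaller in Art -/- cells), and the median was 0.85. The value for Brip1 was then 1.77 and that for Blm 1.63, while Fancd2 stood at 2.0. Without Rag_SPIC_tet_DOX replicate 2 it was called for 22, each larger in Art -/- cells, against 35.3% of all genes (17.6% larger and 17.7% smaller). Of the 21, Chek1 lost its call in 8 of the 12 fits that left out a library, and Chek2, Palb2 and Rad51d in fewer. Of S-phase genes 19 of 28 and of G2/M genes 22 of 24 had a called interaction in the same direction, and of the other pathway genes 29 of 73, with 5 the other way. Their part in the repair-gene values was not tested.

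**Figure D5:**
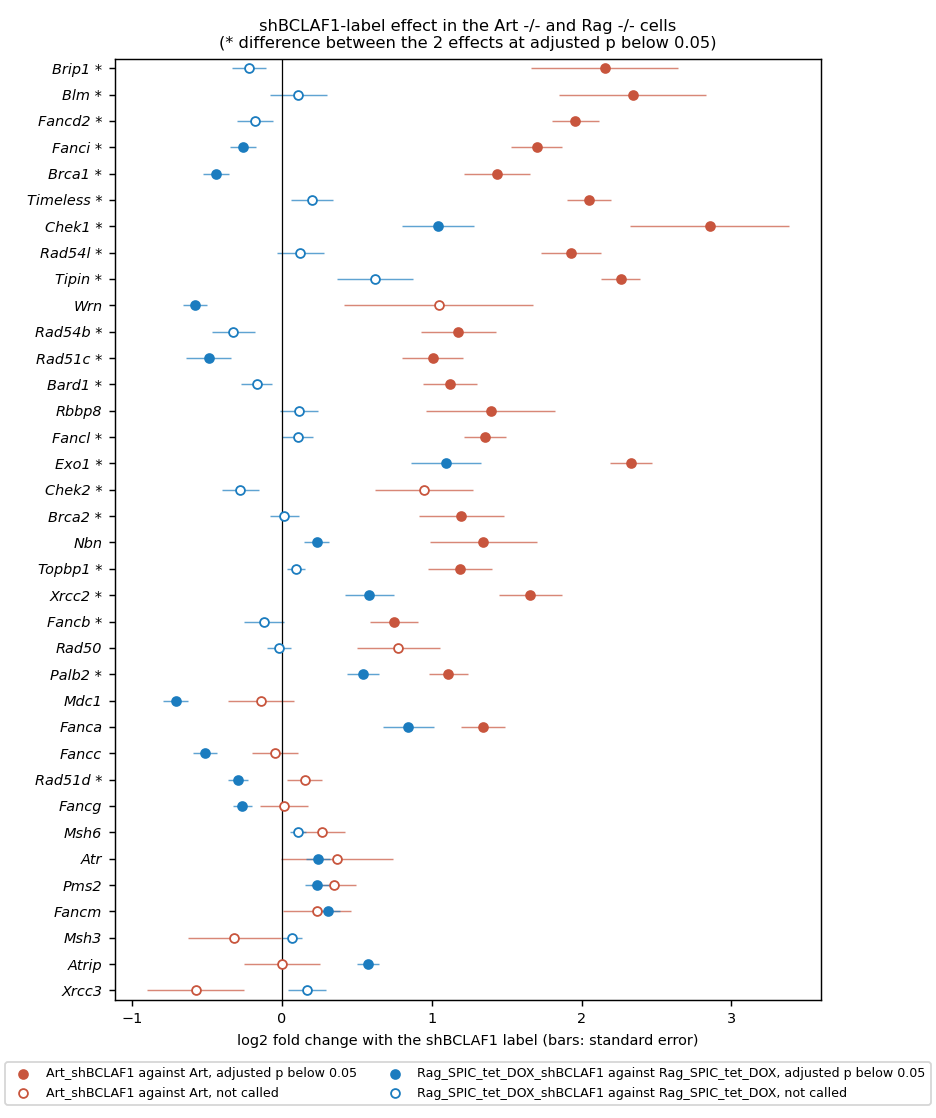
Log2 fold change with the shBCLAF1 label for the 36 repair genes (rows) in Art -/- cells (red) and in Rag -/- cells given DOX (blue), with bars of 1 standard error and filled points where the limma adjusted p is below 0.05. An asterisk marks the 21 genes whose difference between the 2 effects passed the interaction test, and for all 21 the red point lies to the right of the blue one.

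Weighting the libraries by their estimated quality raised the number of repair genes called along with that of all genes. With limma array weights 29, 31, 35, 33 and 34 of 36 were called in the 5 tests in the order above, against 56.7%, 74.4%, 87.2%, 85.2% and 79.3% of all genes. With voom and quality weights on whole reads they were 29, 26, 28, 32 and 33, against 53.5%, 62.3%, 79.8%, 84.1% and 74.5%.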

How the data were processed

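RNA-seq values of 15 libraries were used as deposited. The authors deposited 4 tables of log2 CPM for all libraries (0.5 reads added, effective library size), each listing genes that passed their own test. Tables also hold the authors' log2 fold changes and adjusted p-values. Per the submitters' processing notes, mm9, Subread, featureCounts 1.4.5, edgeR and limma were used, with no role or order given. The union gave 11551 genes after merging of repeated entries. Genes in no table were not analysed here, so shares of all genes refer to this union. Low values were whole reads in 100% of cases (tolerance 0.05 reads). The name of the Art replicate 3 column differs by 1 character from its label.

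Each comparison was fitted with limma 3.58.1 (R 4.3.3, mean-variance trend) on its 6 libraries, the interaction on 12, two-sided, Benjamini-Hochberg over all genes, threshold 0.05. Fits were tested on simulated data. The members and gene lists were chosen with earlier results of these data known. Values per library are given for members among the 3 largest called changes of a comparison and for Brca1, Brca2, Fancd2, Atr and Chek1, plus Tipin, chosen later. Full statistics are given for up to 4 called members at each end, and up to 3 at each end are named from other lists. GENCODE M21 gave exon lengths. Alternatives were array weights, voom with quality weights on the recovered whole reads, all 15 libraries in 1 fit, median centring, log2(CPM + 1), low genes left out, the genes of each authors' table, a replicate block and leaving out each library.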

Additional observations from a re-analysis of the deposited data

Results flagged for a closer look

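For 21 repair genes the shBCLAF1-label effect in Art -/- cells differed from that in Rag -/- cells given DOX by the interaction term of limma over 12 libraries (adjusted p below 0.05 over 11551 genes), the value being the Art -/- effect minus the Rag -/- effect in log2. Among genes of homologous recombination the differences were 2.23 for Blm, 1.88 for Brca1, 1.81 for Rad54l, 1.5 for Rad54b, 1.49 for Rad51c, 1.29 for Bard1, 1.24 for Exo1, 1.18 for Brca2, 1.08 for Xrcc2, 0.57 for Palb2 and 0.44 for Rad51d. Among Fanconi genes they were 2.37 for Brip1, 2.14 for Fancd2, 1.96 for Fanci, 1.25 for Fancl and 0.87 for Fancb. In the ATR-CHK1 list they were 1.85 for Timeless, 1.81 for Chek1, 1.64 for Tipin, 1.23 for Chek2 and 1.10 for Topbp1. The test had 14.3% of all genes called in this direction.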

How the results depend on the processing

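The number of repair genes called in either direction with the shBCLAF1 label in Art -/- cells was 22 above, all of them rises. It changed by at most 1.5 times under each alternative, with 33 called under array weights. Of the 22, 21 stayed called in every planned fit that kept all libraries. Leaving out each library in turn gave 19 to 30 calls there, 0 to 29 for Art against Rag_SPIC_tet_NoDOX, 0 to 15 for Rag_SPIC_tet_DOX against Rag_SPIC_tet_NoDOX, 9 to 19 for the label in Rag -/- cells and 17 to 30 for the interaction. The same fits called 32.4% to 80.1%, 0% to 47.4%, 0.104% to 39.6%, 34.2% to 65.6% and 23.1% to 54.4% of all genes. For Art against Rag_SPIC_tet_NoDOX the 5 calls became 29 with array weights, 29 with voom and quality weights, 20 with all 15 libraries in 1 fit, 8 on the genes of the authors' table and 22 in a fit of 14 libraries without Art replicate 3, a fit chosen after seeing the data, where 56.7%, 53.5%, 16.9%, 16.2% and 29% of all genes were called. For Rag_SPIC_tet_DOX against Rag_SPIC_tet_NoDOX the 1 call became 31, 26, 0, 3 and 12 in the same fits, with 74.4%, 62.3%, 10%, 23.7% and 36.5% of all genes. For the label in Rag -/- cells 18 became 35 with array weights, 28 with voom and 11 with all 15 libraries (87.2%, 79.8% and 39.8% of all genes), and for the interaction 21 became 34 and 33 with array weights and voom (79.3% and 74.5%). The array weights gave Rag_SPIC_tet_DOX replicate 3 a weight of 81.1 beside 0.122 and 0.124 for the other 2, so those counts lean on a single library. With a replicate block the counts were 0 for Art against Rag_SPIC_tet_NoDOX, 0 for DOX, 11 and 22 for the label in Rag -/- and Art -/- cells and 21 for the interaction, with 0%, 1.3%, 44.8%, 41.4% and 29.4% of all genes called. The block left the median log2 fold change of the first at -0.55 and its genes at an unadjusted p below 0.05 at 17 of 36, against 16.5% of all genes. Same-numbered libraries deviated together with correlations of only -0.23 to 0.20, so the numbers were not taken to pair libraries. Atr in Art against Rag_SPIC_tet_NoDOX turned to 0.35 with array weights, 0.35 with voom, 0.36 without Art replicate 3 and 0.36 in the 14-library fit (range with each library left out -0.33 to 0.36), and its interaction to -0.39, -0.40, -0.32 and -0.32 (range -0.32 to 0.37). Xrcc3 in Art against Rag_SPIC_tet_NoDOX turned to -0.36, -0.35 and -0.33 in the first 3 of these (range -0.33 to 0.26). With array weights Fancg turned to -0.13 with the label in Art -/- cells and the Pms2 interaction to -0.13. The cause was not tested. Over all these settings for single genes, the 14-library fit included, 2393 values kept their side of the threshold. A further 324 came to pass it, 128 no longer passed, and 13 turned direction with a call in at least 1 of the 2 fits compared. Values that turned without a call in either fit are among the 2393. Rad50 in Art against Rag_SPIC_tet_NoDOX was such a case, at -0.26 and, without Art replicate 3, at 0.07. In Art replicate 3, 8 of the 36 genes rest on 13 to 49 reads (Chek1, Brip1, Xrcc2, Blm, Rad54b, Chek2, Nbn and Rad51c), which limits those values.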
